A study of Macaca fascicularis with 36 samples.

Results

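In bulk RNA-seq of monkey frontal cortex, 9 genes had a higher level in every library from an animal given the antibody Para09 than in any library from an animal given the control antibody, among the 12 libraries lettered B (1 per animal). They are 9 of the 28623 genes in the deposited tables, and they were chosen by these measured levels. The level was on the counts-per-million scale (CPM), which is the share of a gene in all counts of its library. A gene had to have an exonic width over 200 bases and a mean of at least 2 CPM, and its lowest Para09 library had to exceed its highest control library. Of 13228 genes of that width and level, 9 met this condition (0.068%) and 24 were lower in every Para09 library. The rule also names 7 identifiers to leave out, and 0 of those 7 met the condition.

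The 12 animals were cynomolgus monkeys (Macaca fascicularis), 4 in each of 3 groups. Controls were dosed at 200 mg/kg with the isotype control antibody, anti-gD. The treated groups were dosed at 50 mg/kg or at 200 mg/kg with Para09, which is an agonist antibody directed at human TREM2. The intrathecal route and the sampling of the brain on day 2 were common to all groups, and the sources used here do not give the animals' age. Each animal gave 3 libraries, lettered A, B and C, and the sources used here do not say what the letters stand for. The identifiers in the sample titles form 2 separate runs of numbers: the first holds every letter B library together with letters A and C of animals 1504 (a control) and 5501 (200 mg/kg), and the second holds letters A and C from the 10 remaining animals.

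TREM2 is a lipid-sensing receptor of microglia, the macrophages that reside in the brain. It signals through the adaptor TYROBP and the kinase SYK, and an agonist antibody is meant to activate that signal. The files name genes by identifier alone, and the reference table matched 0 of 28623 identifiers. The 9 genes therefore carry no symbol, function or place in the TREM2 pathway here, and the labelled tissue could not be checked against marker genes. In bulk tissue a larger number of cells of a type and more RNA per cell cannot be told apart.

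Libraries held 15067000 to 36969714 counts, and those of letter B 15067000 to 24912464. Each member had counts in all 36 libraries, with a lowest count of 28. Library 5501B, at 200 mg/kg, stood apart from the other letter B libraries with 15779 genes detected against 17974 to 18736. It was the lowest of the 8 Para09 libraries for 0 of the 9 members, and dropping a library can only loosen the condition. For ENSMFAG00000003891 and ENSMFAG00000046692 it was the highest of the 8, so it raised their letter B means at 200 mg/kg. The letter A and C libraries did not enter the choice of genes, but they come from the same animals. They can show whether a level was found again in an animal, not whether other animals would show it.

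The gap that placed a gene among the 9 was narrow. The lowest Para09 library exceeded the highest anti-gD library by a ratio of 1.002 to 1.17, and for 8 of 9 members the ratio was at most 1.04. Just inside the condition lay ENSMFAG00000046270 (1.002), ENSMFAG00000043710 (1.003) and ENSMFAG00000007179 (1.021). Just outside lay ENSMFAG00000039659 (0.999), ENSMFAG00000042028 (0.995) and ENSMFAG00000029206 (0.993), and in all 30 genes had a ratio over 0.95 that did not exceed 1. For 9 of 9 members the exact 95% Poisson intervals of the 2 libraries that bound the gap overlapped. These intervals cover counting error only. The bounds were set by many animals: 5 of the 8 Para09 libraries were the lowest for at least 1 member, and each of the 4 anti-gD libraries was the highest for at least 1. Leaving out 1 animal loosens the condition by construction, and 10 to 31 genes then met it, the 9 members among them each time. With library sizes scaled by TMM, a correction for differences in RNA composition, 15 genes met it, 8 of the 9 among them. ENSMFAG00000007179 was the exception, at a ratio of 0.982.

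**Figure D1:**
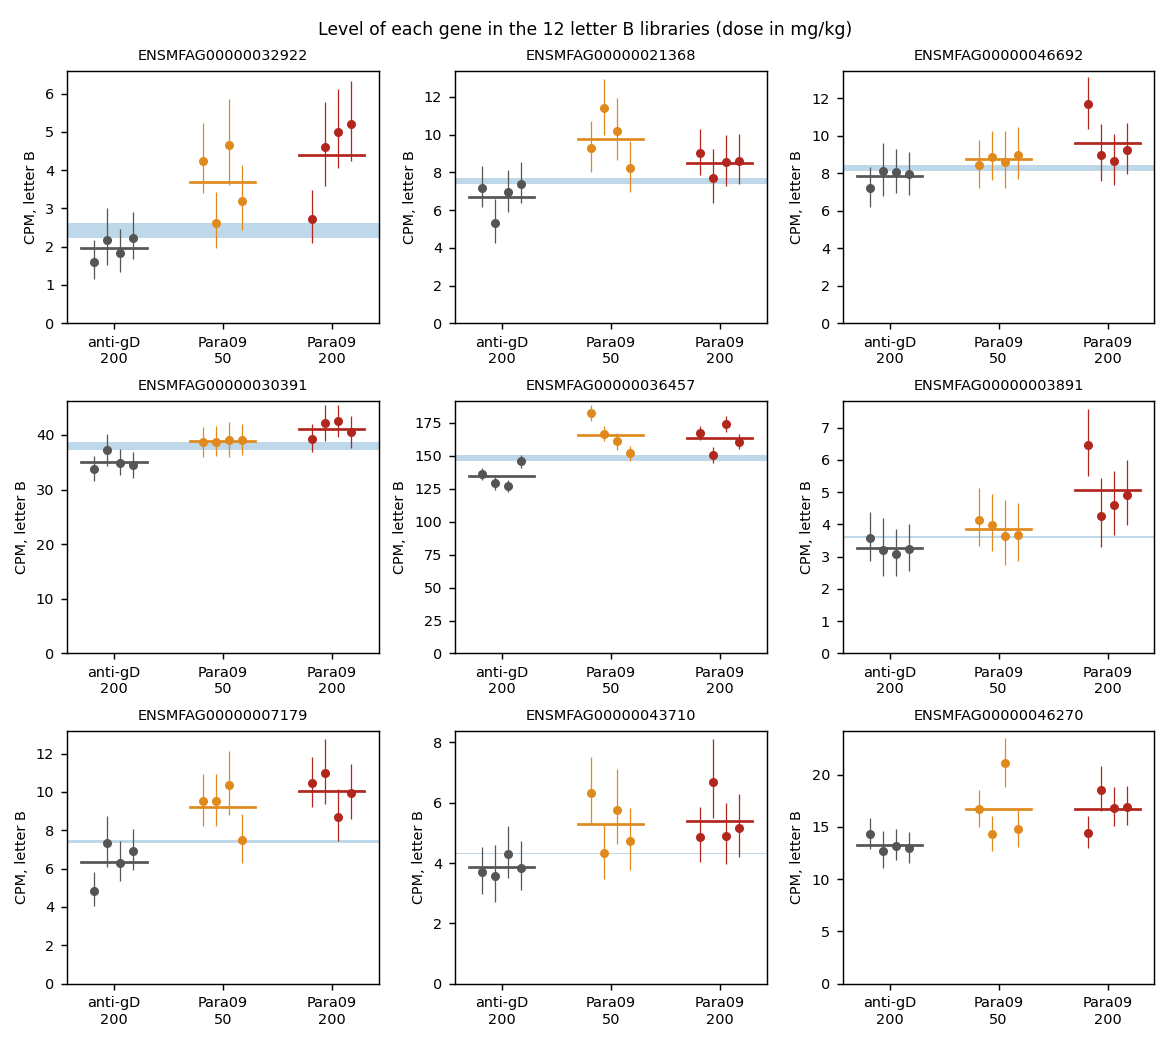
Level of each of the 9 genes in the 12 letter B libraries, in CPM (linear axis from 0), by group with the dose in mg/kg. Points are animals in order of number with exact 95% Poisson intervals, bars are group means, and the blue band spans the gap between the highest anti-gD and the lowest Para09 library. The band is widest relative to the level for ENSMFAG00000032922 (ratio 1.17) and hardly visible for ENSMFAG00000043710 and ENSMFAG00000046270.

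The levels in letter B chose the genes, so they are given as a description without a test. Values follow the order of animal number within a group. The widest gap as a ratio belonged to ENSMFAG00000032922, a low-level gene with an exonic width of 2444 bases. Its letter B levels were 1.61, 2.18, 1.83 and 2.23 CPM in the anti-gD libraries, 4.25, 2.62, 4.65 and 3.20 CPM at 50 mg/kg and 2.73, 4.59, 5.01 and 5.22 CPM at 200 mg/kg. Libraries 4502B and 5501B lay closest to the controls, and the mean of the 8 Para09 animals was 2.05 times that of the 4 controls. ENSMFAG00000007179 (width 1586) had the next largest ratio of means, 1.51. It stood at 4.86, 7.33, 6.31 and 6.91 CPM in the anti-gD libraries, 9.51, 9.51, 10.4 and 7.48 CPM at 50 mg/kg and 10.5, 10.97, 8.71 and 9.97 CPM at 200 mg/kg. Its spread among the controls was wide, from library 1501B to library 1502B, and library 4504B stood just above the latter.

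A further 3 members had ratios of means between 1.36 and 1.39. ENSMFAG00000043710 (width 2115) stood at 3.69, 3.58, 4.31 and 3.85 CPM in the anti-gD libraries, 6.32, 4.32, 5.77 and 4.72 CPM at 50 mg/kg and 4.87, 6.70, 4.90 and 5.16 CPM at 200 mg/kg. The lowest Para09 library, 4502B, exceeded control library 1503B by 0.0116 CPM. ENSMFAG00000003891 (width 3158) stood at 3.57, 3.21, 3.07 and 3.23 CPM in the anti-gD libraries, 4.15, 3.98, 3.65 and 3.69 CPM at 50 mg/kg and 6.47, 4.27, 4.59 and 4.91 CPM at 200 mg/kg. Libraries at 50 mg/kg lay close above the controls, and library 5501B was the highest of all 12. ENSMFAG00000021368 (width 5362) stood at 7.19, 5.33, 6.95 and 7.41 CPM in the anti-gD libraries, 9.31, 11.4, 10.2 and 8.24 CPM at 50 mg/kg and 9.03, 7.72, 8.55 and 8.63 CPM at 200 mg/kg. Here the order of the doses was the other way round, with 9.80 CPM ± 1.34 for 50 mg/kg against 8.48 CPM ± 0.551 for 200 mg/kg (SD, n = 4 animals).

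The last 4 members had ratios of means from 1.14 to 1.26. ENSMFAG00000046270 (width 2342) stood at 14.3, 12.7, 13.2 and 12.996 CPM in the anti-gD libraries, 16.7, 14.3, 21.1 and 14.8 CPM at 50 mg/kg and 14.5, 18.6, 16.8 and 16.9 CPM at 200 mg/kg. Library 4503B was the highest, while 4502B and 5501B lay just above control library 1501B. ENSMFAG00000036457, with a width of 10190 bases the longest of the 9 and with a mean of 155 CPM the highest, stood at 136, 129.6, 127 and 146 CPM in the anti-gD libraries, 183, 167, 161 and 152 CPM at 50 mg/kg and 167, 151, 174 and 161 CPM at 200 mg/kg. Its gap lay between control library 1504B and library 5502B. ENSMFAG00000046692 (width 1933) stood at 7.23, 8.12, 8.06 and 7.95 CPM in the anti-gD libraries, 8.45, 8.88, 8.63 and 9.002 CPM at 50 mg/kg and 11.7, 8.99, 8.66 and 9.24 CPM at 200 mg/kg. Library 5501B was far above the other 7 Para09 libraries, which lay between 8.45 and 9.24 CPM. ENSMFAG00000030391 (width 1613) stood at 33.8, 37.1, 34.9 and 34.4 CPM in the anti-gD libraries, 38.6, 38.8, 39.03 and 39.05 CPM at 50 mg/kg and 39.3, 42.1, 42.5 and 40.4 CPM at 200 mg/kg. The libraries at 50 mg/kg hardly differed from each other, and control library 1502B stood above the other 3 controls.

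Per length of exon, on the deposited RPKM scale (reads scaled by gene length and library total), the mean letter B level was highest for ENSMFAG00000030391 at 13.5 RPKM and for ENSMFAG00000036457 at 8.64 RPKM, and between 0.734 and 3.79 RPKM for the other 7. The members' median width was 2342 bases (1586 to 10190) against 3027 among the 13228 genes, and their median level 8.53 CPM (3.34 to 155) against 26.3 CPM. Neither difference was tested.

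In letters A and C the groups overlapped for 8 of the 9 members. With the counts of both letters summed per animal, the lowest Para09 animal exceeded the highest anti-gD animal for 1 member, ENSMFAG00000003891, where 34 of 13535 genes of the same width and level did so (0.251%). In letter A alone the same member was the only 1 of 9, against 115 of 13523 genes (0.85%). In letter C alone it was 0 of 9, against 8 of 13520 genes (0.0592%). Among the 10 animals of the second run alone (3 controls and 7 given Para09), 1 of 9 members was without overlap, against 505 of 13531 genes (3.73%). Leaving out an animal loosens this condition for all genes. The count was 3 of 9 without control animal 1503 (0.591% of genes), and 2 of 9 without animal 4501 (0.332%) or animal 4504 (0.377%). The number of Para09 animals above the highest control in the summed letters differed by member. It ran from 0 of 8 for ENSMFAG00000030391 and ENSMFAG00000046692 to 8 of 8 for ENSMFAG00000003891. This number was not counted over all genes, so no share is given.

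**Figure D2:**
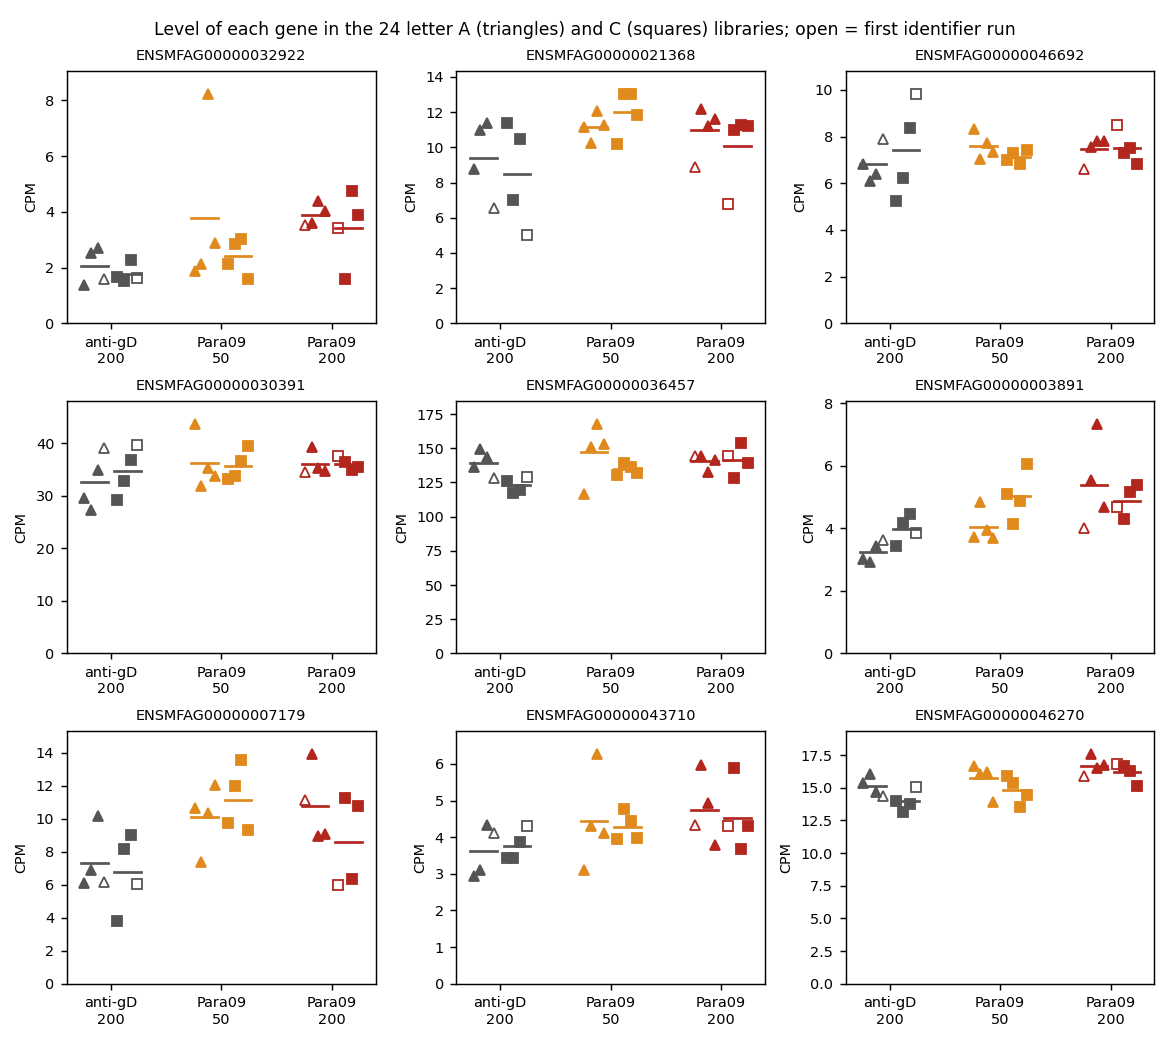
Level of each of the 9 genes in the 24 libraries of letters A (triangles) and C (squares), in CPM (linear axis from 0), by group with the dose in mg/kg. Points are libraries, open points belong to the first identifier run (animals 1504 and 5501), and bars are means of 4 libraries. Groups overlap for all members in letter C and for all but ENSMFAG00000003891 in letter A.

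The fitted difference between Para09 and anti-gD in letters A and C was above 0 for 9 of 9 members and passed the test for none. The fit used edgeR's quasi-likelihood test on the sums of letters A and C per animal, with the identifier run as a term, over 16987 genes. The contrast was the mean of both doses minus anti-gD. A fold change above 0 was found for 50.1% of all genes, and the median log2 fold change was 0.24 over the members and 0.00 over all genes. In letter A alone the members' median was 0.12. At an adjusted p under 0.05 edgeR called 0 of 9 members and 0% of all genes (0 of 16987), and the lowest adjusted p of any gene was 0.338. By unadjusted p under 0.05, 4 of 9 members were higher, as were 4.51% of all genes. This count was 2 of 9 without control animal 1501 (2.42% of genes), and 1 of 9 in letter A alone (4.78%). DESeq2 called 53 genes and a library-level limma voom model 5, with 0 members among them in either, and the unadjusted count was 4 of 9 in both, beside 4.02% and 6.09% of genes. The ratio of the Para09 mean to the anti-gD mean was smaller than in letter B for 9 of 9 members, with a median of 1.22 against 1.36. The letter B ratios come from the libraries that chose the genes.

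ENSMFAG00000003891 kept its groups apart in the summed letters, at 3.23, 3.63, 3.89 and 3.72 CPM with anti-gD, 4.42, 4.51, 4.39 and 4.64 CPM at 50 mg/kg and 4.36, 4.92, 6.31 and 5.001 CPM at 200 mg/kg. The lowest Para09 animal was 5501 and the highest control 1503, and animal 5503 stood above all others. The log2 fold change was 0.38 (SE 0.13; edgeR adjusted p = 0.475). ENSMFAG00000032922 had the largest fold change, 0.80 (SE 0.30; edgeR adjusted p = 0.501), from 1.51, 1.96, 2.51 and 1.61 CPM with anti-gD, 1.998, 2.46, 5.68 and 2.36 CPM at 50 mg/kg and 3.46, 2.61, 4.54 and 3.96 CPM at 200 mg/kg. Animal 4503 was far above the others at 50 mg/kg, and 3 of 4 animals of that dose lay within the range of the controls. Without animal 4503 the fold change at 50 mg/kg was 0.21 in place of 0.68, while that at 200 mg/kg, where all 4 animals exceeded the highest control, was 0.92 with and without it.

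ENSMFAG00000007179 had a log2 fold change of 0.48 (SE 0.18; edgeR adjusted p = 0.504), from 5.01, 7.61, 9.66 and 6.10 CPM with anti-gD, 10.2, 9.54, 11.9 and 10.95 CPM at 50 mg/kg and 8.53, 12.6, 7.72 and 9.88 CPM at 200 mg/kg. Control animal 1503 lay above 3 Para09 animals, so the groups overlapped. Without control animal 1501, the lowest, the fold change was 0.31 with an unadjusted edgeR p of 0.0824. ENSMFAG00000021368 had one of 0.24 (SE 0.10; edgeR adjusted p = 0.518), from 10.04, 8.73, 10.96 and 5.87 CPM with anti-gD, 10.7, 11.5, 12.6 and 11.5 CPM at 50 mg/kg and 7.80, 11.6, 11.3 and 11.4 CPM at 200 mg/kg. Both first-run animals were the lowest of their groups, control 1504 and animal 5501. Among second-run animals alone the log2 fold change was 0.20, and in letter A alone 0.12. The 5 other members had an unadjusted p above 0.05. Their log2 fold change was 0.28 (SE 0.17) for ENSMFAG00000043710, 0.11 (SE 0.08) for ENSMFAG00000046270, 0.10 (SE 0.09) for ENSMFAG00000030391, 0.10 (SE 0.11) for ENSMFAG00000046692 and 0.10 (SE 0.07) for ENSMFAG00000036457, with edgeR adjusted p from 0.617 to 0.788. Without control animal 1501 the fold change was 0.048 for ENSMFAG00000030391 and 0.042 for ENSMFAG00000046692, and among second-run animals 0.16 and 0.17. That of ENSMFAG00000046270 was 0.023 in letter A alone and 0.20 in letter C alone. For ENSMFAG00000036457 the direction turned in letter A alone, to -0.025, against 0.21 in letter C alone. Without a run term, the ratio of the Para09 mean to the anti-gD mean of ENSMFAG00000046692 in letter C alone was 0.987.

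These 5 members differed in how their groups overlapped. ENSMFAG00000046270 stood at 14.7, 14.4, 14.3 and 14.7 CPM with anti-gD, 16.3, 15.8, 14.9 and 14.1 CPM at 50 mg/kg and 16.4, 17.1, 16.4 and 15.98 CPM at 200 mg/kg. All 4 animals at 200 mg/kg lay above the controls, as did 3 of 4 at 50 mg/kg, and animal 4504 lay below them. ENSMFAG00000036457 stood at 131, 131, 133 and 128 CPM with anti-gD, 124, 146, 153 and 145 CPM at 50 mg/kg and 145, 136, 143 and 140.2 CPM at 200 mg/kg. Here 7 of 8 Para09 animals lay above the highest control and animal 4501 below the lowest. ENSMFAG00000043710 stood at 3.19, 3.29, 4.11 and 4.21 CPM with anti-gD, 3.55, 4.53, 5.38 and 4.06 CPM at 50 mg/kg and 4.31, 5.93, 4.33 and 4.03 CPM at 200 mg/kg. Animal 5502 was the highest, as it was in letter B at 200 mg/kg. ENSMFAG00000030391 and ENSMFAG00000046692 had their highest control value in animal 1504, at 39.3 CPM and 8.75 CPM, above all 8 Para09 animals in both cases. Animal 1504 belongs to the first run, and among the 3 second-run controls the highest was 1503, at 35.8 CPM and 7.29 CPM.

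The levels of several members differed between letter B and the summed letters A and C. In the 10 second-run animals, letter B belongs to the first run and letters A and C to the second, so that letter and run cannot be told apart there. ENSMFAG00000046692 was higher in letter B than in the summed letters in 10 of 10 of these animals, by 0.26 ± 0.08 on the log2 scale (SD, n = 10 animals). ENSMFAG00000021368 was lower in 10 of 10, with a mean of -0.42 ± 0.21. In animals 1504 and 5501, whose 3 libraries share the first run, ENSMFAG00000021368 was instead higher in letter B, by 0.34 and 0.21. ENSMFAG00000046692 was lower in letter B in 1504 (-0.14) and higher in 5501 (0.62). ENSMFAG00000036457 was higher in letter B in both, by 0.19 and 0.21, as it was in 8 of 10 second-run animals. Letter B was the higher in over 5 of the 10 second-run animals for 6 of 9 members. These numbers were not counted over all genes, so no share is given and they cannot be read as a trait of the members. The part of the run in the differences between groups was not tested beyond these fits. Without the run term the median log2 fold change of the members was 0.28, and among second-run animals 0.20, with 9 of 9 members above 0 in both.

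Levels in libraries of the same animal differed by more than the gap that chose the genes. The highest of an animal's 3 libraries exceeded the lowest by a factor whose median over the 12 animals was 1.12 for ENSMFAG00000046270, the least variable member, and 1.44 for ENSMFAG00000032922, the most variable. Between letters A and C alone, which share a run in every animal, it was 1.06 to 1.27. For 9 of 9 members both factors exceeded the ratio of the lowest Para09 to the highest anti-gD library in letter B. These are unlike measures. A factor of highest over lowest cannot fall under 1. The gap sets the lowest of 8 libraries against the highest of 4, so it is smaller than the ratio of the group means. That ratio was 1.14 to 2.05 in letter B, which chose the genes. The measures were not compared over all genes.

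**Figure D3:**
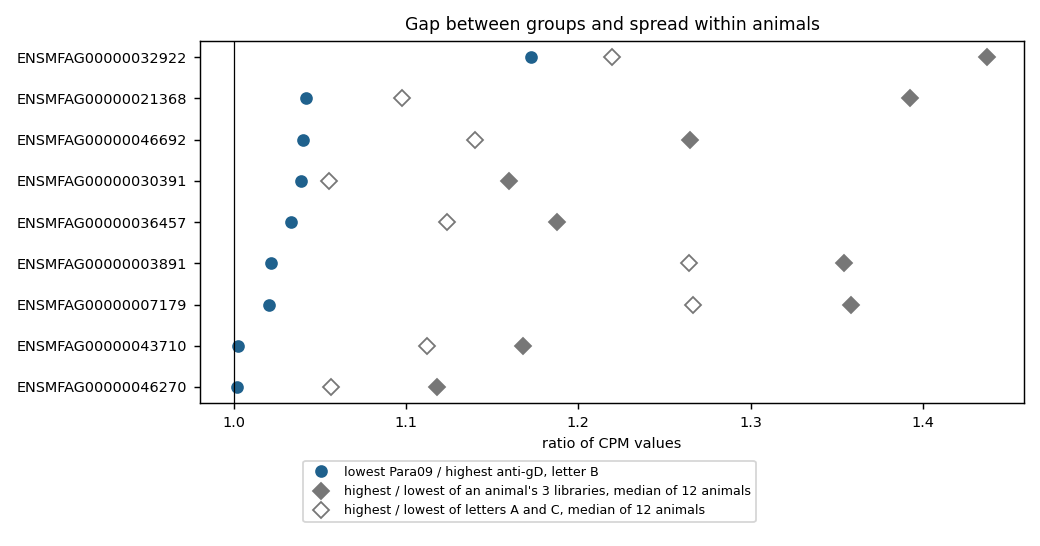
For each of the 9 genes, the ratio of the lowest Para09 to the highest anti-gD library in letter B (blue), the highest over the lowest of an animal's 3 libraries (filled diamonds) and the higher over the lower of its letters A and C (open diamonds), the last 2 as medians of 12 animals. In 9 of 9 rows the blue point, at 1.002 to 1.17, lies to the left of both diamonds.

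In letters A and C the direct comparison of the doses gave no difference past the test. The choice of genes did not use this contrast, but it used the letter B libraries. Both doses had to exceed the controls there, so the letter B counts and p-values are not independent of the choice. They are listed as a description, and no conclusion is drawn from them. In letters A and C edgeR called 0 of 9 members and 0 of 16987 genes between 200 and 50 mg/kg, and in letter B 0 of 9 and 0 of 15508. The share of genes called was 0% in both. At an unadjusted p under 0.05 there were 0 of 9 members in both fits. In either direction there were 472 of 16987 genes in letters A and C and 235 of 15508 in letter B. Those higher at 200 mg/kg were 1.32% and 0.851% of genes. DESeq2 called 1 gene in each, a member in neither, and limma voom on single libraries found 1 gene in letters A and C, also no member. The log2 difference of 200 minus 50 mg/kg in letters A and C ran from -0.09 to 0.25, with 4 of 9 above 0, and in letter B from -0.24 to 0.36, with 6 of 9 above 0. It was 0.25 (SE 0.34) for ENSMFAG00000032922 in letters A and C and 0.22 (SE 0.29) in letter B. The former moved with single animals: it was 0.72 without 4503 and 0.42 without 5502, and 0.084 without 4501, 0.13 without 4504 or 5503 and 0.15 without 4502. Without 4503 the unadjusted count became 1 of 9. That member was higher at 200 mg/kg, as were 2.26% of genes at the same limit. ENSMFAG00000003891 differed by 0.21 (SE 0.15) and 0.36 (SE 0.21), and ENSMFAG00000007179 by -0.09 (SE 0.21) and 0.09 (SE 0.20). The letter B value of ENSMFAG00000003891 includes library 5501B, at 6.47 CPM against 4.27 to 4.91 CPM in the other libraries at 200 mg/kg. The adjusted p was 0.9996 for 9 of 9 members in letters A and C (edgeR).

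The doses share their control animals, and their fold changes against anti-gD are given side by side. In letters A and C edgeR called 0 of 9 members and 0% of 16987 genes at either dose. At 200 mg/kg the log2 fold change of the members ran from 0.08 to 0.92 with a median of 0.23, and 2 of 9 had an unadjusted p under 0.05, as had 1211 genes. For 50 mg/kg it ran from 0.07 to 0.68 with a median of 0.24, with 1 of 9 and 1214 genes. Those counts include both directions, and the members counted were all higher, as were 3.76% of genes for the higher dose and 3.35% for the lower. They moved with single animals. For 200 mg/kg the count was 4 of 9 without control animal 1503 (3.31% of genes) and 3 of 9 without animal 5503 (2.66%). For 50 mg/kg it was 4 of 9 without animal 4501 (2.64%), 2 of 9 without 1503 (2.98%), and 0 of 9 without control animal 1501 (2.08%) or animal 4503 (3.25%). DESeq2 called 32 genes for the higher dose and 22 for the lower, and the limma voom model 14 and 0, with 0 members in each. The log2 fold change of ENSMFAG00000003891 was 0.48 (SE 0.14) for the higher dose and 0.27 (SE 0.15) for the lower, that of ENSMFAG00000032922 0.92 (SE 0.33) and 0.68 (SE 0.34), and that of ENSMFAG00000007179 0.43 (SE 0.20) and 0.52 (SE 0.21). The adjusted p over all genes lay between 0.625 and 0.915 for every member at either dose in this edgeR fit.

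**Figure D4:**
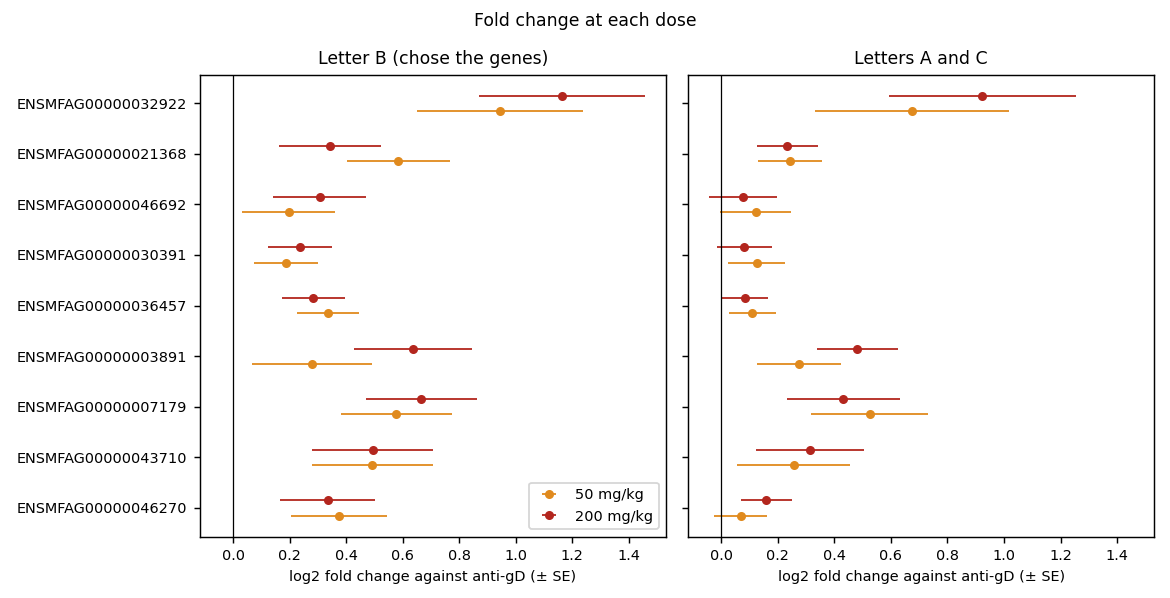
Log2 fold change against anti-gD of each of the 9 genes at 50 mg/kg (orange) and 200 mg/kg (red), with its standard error, from edgeR fits of the 12 letter B libraries (left) and of letters A and C summed per animal with the identifier run as a term (right). The left panel shows the contrast that chose the genes and carries no test. In the right panel all 18 values lie above 0, from 0.07 to 0.92, and none passed the test.

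Seen by library, the median over the 9 members of the log2 level relative to the anti-gD mean of the same letter ran from 0.09 to 0.40 in the 8 Para09 libraries of letter A and from -0.10 to 0.11 in the 4 controls. In letter C it ran from 0.10 to 0.25 against -0.12 to 0.17. The lowest Para09 library of letter A was 5501A and that of letter C 4504C, and the highest control library was from animal 1503 in both. The Para09 and control libraries thus overlapped in both letters. In letter B, which chose the genes, it was 0.20 to 0.59 against -0.05 to 0.02.

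Pairs of members had correlations of either sign across animals. After the mean of each group and run was removed from the log2 levels of the summed letters (0.5 CPM added), the 36 pairs of members had a median Pearson r of 0.12 over 12 animals, with 26 pairs above 0. The median over all pairs of the 13228 genes was 0.00. The closest pair was ENSMFAG00000030391 with ENSMFAG00000046692 (r = 0.88), and the most opposed ENSMFAG00000036457 with ENSMFAG00000046270 (r = -0.65). These values describe 12 animals that share their libraries across genes, and they were not tested.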

How the data were processed

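Bulk RNA-seq of frontal cortex from 12 monkeys (36 libraries) was analysed. Per the file headers, the authors deposited for each gene a count of reads, a width of its exons and its RPKM. The deposited RPKM values rest on a library total of which the counts form 52.9% to 63.0%. The submitters' processing notes name GSNAP, without a version. The sources used here do not give the build, the annotation, the strand setting or the treatment of shared reads, so close copies and overlapping genes may have exchanged counts. A table of 40596 genes matched 0 of 28623 identifiers, so marker and pathway lists were not applied.

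The members, gene lists and tests were chosen with earlier results of these data known. Members were found from counts as deposited (width over 200, mean of at least 2 CPM). The rule for named genes (largest gap, highest level, extremes of the fold change, nearest the threshold) covers all 9. Counts of letters A and C were summed per animal and fitted by the quasi-likelihood test of edgeR 4.0.16 (R 4.3.3) with TMM, filterByExpr and terms for the 3 groups and the identifier run. P-values were adjusted over all genes by the Benjamini-Hochberg method, and standard errors derived from the F statistic. Letter B counts were fitted likewise without the run term, for the dose comparison. The script was tested on simulated data. Alternatives were RLE size factors, other filters, DESeq2 1.42.0, no run term, second-run animals only, single letters, limma 3.58.1 voom on 24 libraries (animal as random block) and each animal left out. A comparison with other choices of 4 animals as controls was not made. Poisson intervals are exact (95%) and cover counting error only.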

Additional observations from a re-analysis of the deposited data

Results flagged for a closer look

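Of 54 groups of 4 values (9 members, 3 groups, letter B and the summed letters A and C), 4 had a value far from the other 3, where chance gives about 1 in 20. ENSMFAG00000043710 in animal 5502 at 200 mg/kg was high in letter B, at 6.70 CPM against 4.87 to 5.16 CPM, and in letters A and C, at 5.93 CPM against 4.03 to 4.33 CPM. ENSMFAG00000021368 in letters A and C was low in animal 5501 at 200 mg/kg, at 7.80 CPM against 11.3 to 11.6 CPM, and this animal's A and C libraries belong to the first identifier run while those of the other 3 belong to the second. ENSMFAG00000032922 in letters A and C was high in animal 4503 at 50 mg/kg, at 5.68 CPM against 2.00 to 2.46 CPM; its letter A library stood at 8.24 CPM and its letter C library at 3.03 CPM.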

How the results depend on the processing

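The number of members called was 0 in each fit and each alternative run. Over all genes, edgeR called 0 to 2 genes under its alternatives, the limma voom model 0 to 14 and DESeq2 1 to 53. The number of genes that met the rule was 15 with TMM-scaled library sizes, with 8 members kept; the cause was not tested. With the totals behind the deposited RPKM values it was 12, with 6 members kept. ENSMFAG00000003891 (ratio 0.971) and ENSMFAG00000046270 (0.974) then overlapped. ENSMFAG00000032922 stayed without overlap (ratio 1.23) but fell under the level limit at 1.90. These totals exceed the sums of counts, so all levels are lower on that scale, while the limit of 2 was kept. The number of genes that met the rule was 10 to 31 when 1 animal was left out, which loosens the condition by construction. It was 22 without 1501, 31 without 1502, 17 without 1503 and 24 without 1504. Without a Para09 animal it was 15 for 4502, 16 for 4503, 27 for 4504, 15 for 5501 and 14 for 5502. Members without overlap in letters A and C numbered 0 in letter C alone and 1 to 3 when 1 animal was left out, where 0.281% to 3.11% of all genes were without overlap. The median log2 fold change of the members was 0.12 in letter A alone and 0.12 to 0.28 over alternatives, and 0.19 to 0.30 when 1 animal was left out; the cause of the lower value was not tested. Against anti-gD the direction turned for ENSMFAG00000036457 in letter A alone (-0.025). Between the doses, only the 3 members with the largest dose difference in letters A and C were followed singly. Among them the direction turned for ENSMFAG00000003891 in letter C alone (-0.053). It also turned for ENSMFAG00000007179 in letter A alone (0.11) and without animal 5503 (0.049). Values of ENSMFAG00000007179 without 1 animal ran from -0.26 to 0.049. The number of members above 0 between the doses was 4, and 3 to 6 when 1 animal was left out. Other members therefore turned as well. Counting error limits low members most: the bounding libraries of ENSMFAG00000032922 held 54 counts each.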
